A study of Mus musculus with 16 samples.

Results

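The AP-1 transcription factor genes measured here are Jun, Junb, Jund, Fos, Fosb, Fosl2 and Atf3, 7 of the 50686 genes quantified in sorted mouse hematopoietic stem cells (HSCs). They were taken by name as the JUN genes, the FOS genes other than Fosl1, and Atf3, and all 7 were found in both expression tables and passed the filter on low counts that left 15308 genes for testing. C57BL/6J mice were injected intraperitoneally every 48 h for 85 days with palbociclib at 30.4 mg/kg (an inhibitor of the cell cycle kinases CDK4 and CDK6), with rapamycin at 6.4 mg/kg (an inhibitor of the growth kinase mTORC1), with both drugs at these doses (the combination), or with vehicle alone. All groups, the controls included, received the carrier of 20% DMSO and 40% PEG 400 in PBS. The age and sex of the mice, and whether a library came from 1 mouse or several, were not given in the labels. Bone marrow was depleted of lineage-positive cells, stained for CD150, CD48, Sca-1 and CD117 (Kit), and 10000 cells in G0/G1 were sorted per sample. RNA-seq gave 4 libraries per group, 16 in all.

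AP-1 is a family of paired DNA-binding proteins: JUN proteins can pair with each other or with a FOS protein, whereas FOS proteins need a JUN partner. ATF3, a stress-induced relative, also pairs with JUN proteins. Growth factors, cytokines and stress act on these genes through MAP kinases within minutes, which makes Fos, Jun and their relatives immediate early genes, and cell dissociation and sorting are known to induce them too. In mice, loss of JunB in the blood lineage is known to cause a myeloproliferative disease that starts in HSCs.

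Total counts per library ranged from 10133860 to 15328830, and 16570 to 20418 genes were detected. The markers of the sort were present in every library, with Slamf1 (CD150) at 5.83 to 28.9 TPM, Kit at 33.5 to 173 TPM, Ly6a (Sca-1) at 142 to 1268 TPM, and Cd48, which HSC gates usually leave out, at 8.24 to 60.5 TPM. Neutrophil genes were also read in every library: the 19 listed took 0.882% to 9.96% of the counts, all 19 were above 0 in all 16 libraries, and the alarmin gene S100a8 alone reached 4637 to 46842 TPM. B cell genes took 0.00591% to 3.22%. Vehicle 3, rapamycin 3 and vehicle 4 were given by earlier work on these data as the libraries least like the rest, and fitted differences of the 7 genes without these 3 are given for each comparison in which one of them moved by more than 1.5 times or turned in sign.

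The 7 genes spanned a wide range of levels per length. In TPM, averaged over 16 libraries, Jund was highest at 295 ± 115 (SD), followed by Junb at 230.1 ± 51.9, Fos at 96.5 ± 22.6, Jun at 88.0 ± 19.6, Atf3 at 27.7 ± 9.11, Fosl2 at 17.7 ± 12.1 and Fosb at 14.4 ± 5.95. The JUN genes were the bulk of the family: they made up 79.4% ± 3.28 of the summed TPM of the 7 genes, which itself ran from 515 to 1259 TPM. Not all neighbours in this order were separated. Junb was above Fos, and Jun above Atf3, in 16 of 16 libraries. Jund was above Junb in 12 of 16, Fos above Jun in 12 of 16, and Atf3 above Fosl2 in 12 of 16, while Fosl2 exceeded Fosb in 8 of 16, so these 2 were not ordered.

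**Figure D1:**
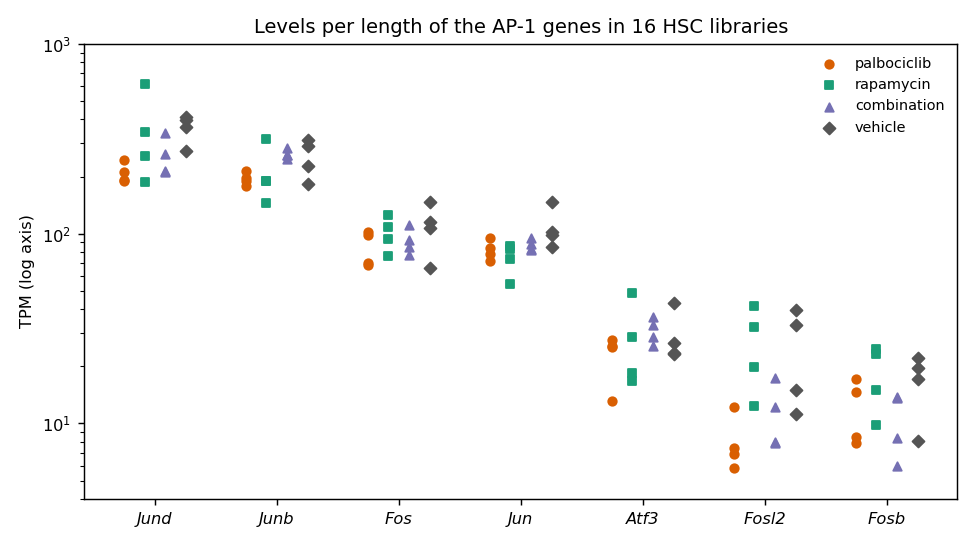
TPM (log axis) of each AP-1 gene in the 16 HSC libraries, ordered by mean, with markers for palbociclib, rapamycin, combination and vehicle. Jund and Junb lie above the other 5 genes in every library, and Fosl2 has the widest range, 5.83 to 41.7 TPM.

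Fosl2 varied more in TPM than in counts. The TPM per CPM (library-scaled counts after TMM) of Fosl2 differed by up to 2.16-fold between libraries, against at most 1.47-fold for the other 6 genes, so its 7.15-fold range in TPM stood beside a 3.84-fold range in CPM. A gene's TPM depends on the transcript length that the estimate assigns to it. For this reason levels between genes are given in TPM, and differences between groups in CPM.

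On GRCm38 (GENCODE M21), Fos (ENSMUSG00000021250) lies at chr12:85473890-85477273 on the plus strand with 4 exons, and Jun (ENSMUSG00000052684), a single-exon gene, at chr4:95049034-95052222 on the minus strand. Junb (ENSMUSG00000052837) and Jund (ENSMUSG00000071076) are also single-exon genes, at chr8:84974484-84978718 (minus) and chr8:70698949-70700616 (plus). Fosb (ENSMUSG00000003545) lies at chr7:19302696-19310051 (minus), Fosl2 (ENSMUSG00000029135) at chr5:32135801-32157842 (plus) and Atf3 (ENSMUSG00000026628) at chr1:191170296-191218039 (minus), with 4 exons each. Genes on the opposite strand overlap Jun (the antisense gene Junos, 689 bp), Jund (the antisense gene Gm11175, 919 bp) and, at its end, Junb (the coding gene Prdx2, 351 bp). The strand setting of the counting is not given in the sources used here, so reads in these overlaps may not be assigned to one gene with certainty. Junos had 0 to 65 counts and Gm11175 0 to 502 counts per library. Adding them to Jun and Jund changed no call, since no AP-1 gene passed in edgeR with or without them. Prdx2 had 3276 to 8946 counts per library, and its overlap with Junb was not examined.

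RefSeq (GRCm38.p6) holds a window of 250 bases before to 50 after the start for 27025 mouse genes, and all 7 were matched. The windows of Fos (chr12:85473640-85473939, plus), Fosb (chr7:19309996-19310295, minus), Jun (chr4:95052173-95052472, minus), Junb (chr8:84978699-84978998, minus) and Atf3 (chr1:191183284-191183583, minus) have a start within 30 bases of that of a GENCODE coding transcript and are shown to set the letters matched beside these genes. Those of Fosl2 and Jund lie 671 and 1210 bp from one and are left out. The Atf3 window lies inside the gene. Its start is 7 bp from that of a coding transcript but 34706 bp from the outer start of the gene. Capitals mark TGACG (the core of the CREB and ATF site TGACGTCA, and so also found within it), TGACATCA (an AP-1-like element), CCAAT and TATAAA on either strand, 5′ to 3′.
Fos: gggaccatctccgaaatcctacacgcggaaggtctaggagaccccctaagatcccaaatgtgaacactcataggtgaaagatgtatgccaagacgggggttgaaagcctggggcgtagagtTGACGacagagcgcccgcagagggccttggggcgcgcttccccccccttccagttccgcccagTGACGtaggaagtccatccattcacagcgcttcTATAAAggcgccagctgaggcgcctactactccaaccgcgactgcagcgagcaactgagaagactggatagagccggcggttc
Fosb: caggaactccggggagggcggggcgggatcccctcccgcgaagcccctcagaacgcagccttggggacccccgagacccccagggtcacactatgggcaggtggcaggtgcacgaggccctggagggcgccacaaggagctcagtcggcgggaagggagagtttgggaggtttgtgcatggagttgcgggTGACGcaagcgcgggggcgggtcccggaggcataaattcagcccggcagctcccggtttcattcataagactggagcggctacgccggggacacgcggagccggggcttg
Jun: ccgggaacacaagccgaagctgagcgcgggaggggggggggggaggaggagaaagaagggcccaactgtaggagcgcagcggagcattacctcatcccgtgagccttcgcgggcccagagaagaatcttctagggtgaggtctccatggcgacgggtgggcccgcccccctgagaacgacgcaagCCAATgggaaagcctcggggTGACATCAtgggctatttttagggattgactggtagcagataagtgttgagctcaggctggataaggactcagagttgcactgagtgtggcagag
Junb: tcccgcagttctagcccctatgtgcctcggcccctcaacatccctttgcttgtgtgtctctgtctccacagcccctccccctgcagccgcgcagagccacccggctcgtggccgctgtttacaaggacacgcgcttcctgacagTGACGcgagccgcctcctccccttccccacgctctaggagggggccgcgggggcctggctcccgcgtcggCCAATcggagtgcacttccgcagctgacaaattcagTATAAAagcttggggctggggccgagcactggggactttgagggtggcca
Atf3: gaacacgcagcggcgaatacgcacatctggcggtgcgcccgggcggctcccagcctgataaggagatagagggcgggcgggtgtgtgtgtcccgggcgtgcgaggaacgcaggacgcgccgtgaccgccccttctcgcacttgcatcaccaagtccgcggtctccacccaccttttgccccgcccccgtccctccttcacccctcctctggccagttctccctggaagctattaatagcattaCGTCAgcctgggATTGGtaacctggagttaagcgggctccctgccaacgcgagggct
The TGACG letters occurred in 4 of these 5 windows (Fos at -129 and -66, Fosb at -60, Junb at -106 and, on the reverse strand, Atf3 at -7, counted from the start), and in 20.8% of 32851 mouse windows. Among these 5, TGACATCA occurred in Jun alone, at -45 (3.62% of windows), and TATAAA in Fos at -33 and Junb at 1 (13.6%). Positions are counted from the RefSeq start, and the GENCODE start of Junb lies 30 bases downstream of it. CCAAT was found in 3 of 5 (37.4%) and GGGCGG, the letters of a GC box, not capitalised, in 4 of 5 (35.7%). Neither TGANTCA (the core AP-1 site, 7.81% of windows) nor a CArG box, the site of SRF (1.63%), nor TGACGTCA (1.79%) was found in any of the 5. These are letter matches within 300 bases, both strands.

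In mice given palbociclib, all 7 AP-1 genes had lower fitted levels than in vehicle, though none passed the test in edgeR. The fitted differences ran from -0.39 (log2, Junb) to -1.23 (Fosl2), with a median of -0.42 against -0.03 for all 15308 genes, of which 52.2% were negative. Of all genes tested, 0% passed the threshold of adjusted p 0.05 in edgeR (1456 had an unadjusted p under 0.05, limma-voom passed 0 and DESeq2 112). At an unadjusted p under 0.05, 3 of the 7 were lower (Fosl2, Jund and Jun), against 5.15% of all genes. For any gene in these bulk libraries, fewer cells expressing it and less RNA per cell cannot be told apart.

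Jund and Junb were the JUN genes in which the palbociclib group stood wholly below vehicle. Jund, the most constitutively expressed JUN gene, had 279.6, 290.3, 275 and 272 CPM in palbociclib, against 455, 399, 546 and 593 CPM in vehicle (replicates 1 to 4). All 4 palbociclib libraries were lower than all 4 vehicle libraries, which was the case for 2 of the 7 genes and 2.21% of all genes. The fitted log2 fold change was -0.84 ± 0.26 (SE), a 95% interval of -1.39 to -0.28, with an adjusted p of 0.338 (edgeR, quasi-likelihood). Junb had 312, 245, 279.8 and 301 CPM in palbociclib, against 363, 361, 446 and 325 CPM in vehicle. Again no palbociclib library reached the vehicle range, but the difference was small, -0.39 ± 0.19 with an adjusted p of 0.529.

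Jun, the founding member of the family, stood at 270.2, 194, 201 and 195 CPM in palbociclib, against 219.9, 288, 378 and 269 CPM in vehicle. Palbociclib 1 lay inside the vehicle range and the other 3 below it, and the log2 fold change was -0.42 ± 0.18 (adjusted p 0.488).

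Among the FOS genes, Fosl2 (FRA-2) had the largest difference, with 31.2, 54.0, 28.6 and 28.4 CPM in palbociclib, against 108, 84.2, 92.0 and 50.6 CPM in vehicle. The groups overlapped only in palbociclib 2, which was above vehicle 4. The log2 fold change was -1.23 ± 0.30 (95% interval -1.87 to -0.60), 52nd of 15308 genes by p, with an unadjusted p of 0.000807 and an adjusted p of 0.237 by edgeR. DESeq2 put it past the threshold, at -1.25 ± 0.31 with an adjusted p of 0.0181. Fos had 177, 150.5, 120.5 and 109 CPM in palbociclib, against 159.9, 256, 104 and 218 CPM in vehicle, and Fosb 25.5, 44.0, 27.1 and 41.4 CPM against 56.7, 54.3, 23.3 and 70.7 CPM in vehicle. For Fos the groups overlapped widely, and for Fosb they overlapped through vehicle 3 alone, with log2 fold changes of -0.40 ± 0.25 for Fos and -0.57 ± 0.35 for Fosb (adjusted p 0.656 for both, by edgeR). Atf3 had 23.0, 35.6, 46.5 and 39.2 CPM in palbociclib, against 35.6, 75.5, 37.1 and 45.1 CPM in vehicle, a log2 fold change of -0.42 ± 0.34 (adjusted p 0.740), with the groups overlapping. Leaving out 1 library at a time gave -0.60 to -0.20 for Fos and -0.56 to -0.12 for Atf3, the values nearest to 0 being those without vehicle 2.

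**Figure D2:**
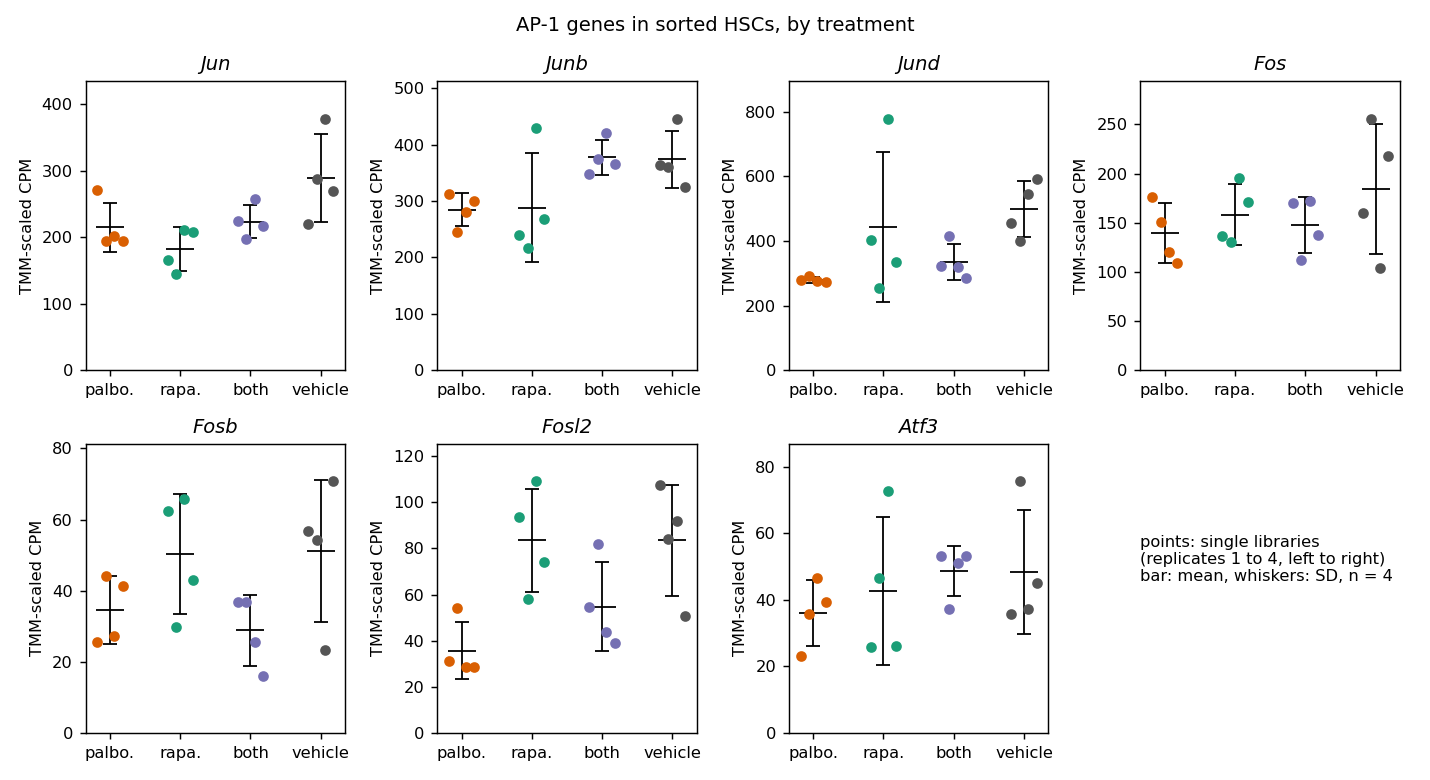
TMM-scaled CPM (linear axis from 0) of each AP-1 gene by group, palbociclib to vehicle, with a point per library, the mean as a bar and the SD as whiskers (n = 4). The 4 palbociclib libraries for Jund lie between 272 and 290 CPM, below all 4 vehicle libraries.

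Markers of other blood cells and of HSCs were read beside these genes. Of the 19 neutrophil genes, 17 were higher and 2 lower in palbociclib and none passed the test in edgeR. Their summed share was 1.33% to 9.96% in palbociclib, against 1.34% to 6.80% in vehicle, and none of the 19 was at 0 in any library. Of 11 B cell genes tested, 1 was higher and 10 lower, with a summed share of 0.0355% to 1.06% in palbociclib, against 0.166% to 3.22% in vehicle, and Pax5, a defining B cell factor, was at 0 counts in 10 of the 16 libraries. Of 10 T and NK cell genes tested, 1 was higher and 9 lower with a median of -1.26, at a summed share of 0.0174% to 0.0598% in palbociclib, against 0.0179% to 0.0706% in vehicle, and Cd3e was at 0 counts in 4 of the 16 libraries. In that list Nkg7 had a median of 532 TPM over the 16 libraries, against 20.9 TPM for Lck and at most 3.53 TPM for the others. The T and NK cell share may therefore rest mostly on Nkg7. Of 12 erythroid genes, 5 were higher and 7 lower, with a summed share of 0.0724% to 0.296% in palbociclib, against 0.0778% to 0.342% in vehicle. Of 16 HSC identity genes, 2 were higher and 14 lower, none past the test in edgeR, with a summed share of 0.138% to 0.289% in palbociclib, against 0.169% to 0.345% in vehicle. Within the library of each group with the fewest neutrophil counts, Fosl2 was 54.0 CPM in palbociclib 2, 93.6 CPM in rapamycin 1, 81.8 CPM in combination 2 and 108 CPM in vehicle 1. Each of these libraries was the highest of its own group for Fosl2, except rapamycin 1, which ranked 2nd. Across the 16 libraries Fosl2 went with the neutrophil share at r = -0.54 and rho -0.57 (permutation p 0.0338 and 0.0233, adjusted over 91 relations 0.272 and 0.194), with r at -0.44 without the 2 libraries farthest from the median. It went with the erythroid share at r = 0.55 and rho 0.60 (permutation p 0.0281 and 0.0161, adjusted 0.255 and 0.194), and with the B cell share at r = -0.52 and rho -0.54 (permutation p 0.0418 and 0.0329, adjusted 0.272 and 0.249), with r at 0.46 and -0.42 without the 2 farthest. It went with the HSC identity share at r = 0.70 and rho 0.70 (permutation p 0.00326 and 0.00323, adjusted 0.135 and 0.171), with r at 0.53 without the 2 farthest. These relations pool differences between groups with those between libraries of a group, and values within groups were not computed for them. With the neutrophil and B cell shares as covariates, no AP-1 gene passed in edgeR for palbociclib against vehicle. In another comparison, palbociclib averaged over both rapamycin levels, Fosl2 was at -0.88 with these covariates (adjusted p 0.0343 by edgeR). Without them it was at -0.92 there (adjusted p 0.0789 by edgeR). The HSC identity, erythroid, and T and NK cell shares were not used as covariates, so their part in these differences was not tested. Without vehicle 3, rapamycin 3 and vehicle 4, the palbociclib differences were -1.43 for Fosl2, -0.68 for Fosb, -0.62 for Atf3, -0.61 for Jund, -0.57 for Fos, -0.34 for Junb and -0.24 for Jun.

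In rapamycin, with all 16 libraries in the fit, Jun was the AP-1 gene with the largest fitted difference, and it did not pass the test. Jun had 165, 144, 211 and 208 CPM in rapamycin, against 219.9, 288, 378 and 269 CPM in vehicle. All 4 rapamycin libraries were below all 4 vehicle libraries, which was so for 1 of the 7 genes and 1.50% of all genes. The log2 fold change was -0.66 ± 0.18 (95% interval -1.05 to -0.28, adjusted p 0.403 by edgeR). No AP-1 gene passed, against 0.00653% (1) of all genes. At an unadjusted p under 0.05, Jun was the 1 of 7 that was lower, against 4.34% of all genes. Junb had 239, 216, 429 and 268 CPM in rapamycin (-0.38 ± 0.19 log2, adjusted p 0.692), and rapamycin 3 lay near the vehicle high end while the other 3 were below the vehicle range.

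Jund was spread over 402, 255, 778 and 335 CPM in rapamycin, with rapamycin 3 the highest of all 16 libraries, rapamycin 1 inside the vehicle range and the other 2 below it. Its difference was -0.17 ± 0.26 (adjusted p 0.959), and it was -0.59 without rapamycin 3 and 0.02 without rapamycin 2. Fosl2 had 93.6, 58.0, 109 and 74.0 CPM in rapamycin, inside the vehicle range but for rapamycin 3, and a log2 fold change of 0.00 ± 0.30.

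The other 3 genes overlapped vehicle in rapamycin. Fos had 136, 130.1, 195 and 172 CPM in rapamycin, a log2 fold change of -0.22 ± 0.25 (95% interval -0.75 to 0.31). Fosb had 62.5, 29.7, 65.9 and 43.1 CPM in rapamycin, a log2 fold change of -0.03 ± 0.35 (95% interval -0.77 to 0.72). Atf3 had 25.7, 46.5, 72.8 and 26.1 CPM in rapamycin, a log2 fold change of -0.18 ± 0.34 (95% interval -0.89 to 0.53). Rapamycin 3 was the highest of its group for all 3 genes. Without vehicle 3, rapamycin 3 and vehicle 4, the rapamycin differences were -0.76 for Atf3, -0.58 for Junb, -0.56 for Jun, -0.51 for Fos, -0.37 for Jund, -0.35 for Fosl2 and -0.30 for Fosb, so that Atf3 and not Jun was then farthest from 0.

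Cell markers also differed between rapamycin and vehicle, with none past the test in edgeR (DESeq2 passed Igkc and Selp, both lower). Of 11 B cell genes tested, 10 were lower in rapamycin with a median of -3.40, and the summed share was 0.0110% to 0.155% in rapamycin, against 0.166% to 3.22% in vehicle, with no overlap. All 10 T and NK cell genes tested were lower with a median of -1.73, at 0.0176% to 0.0438% in rapamycin, against 0.0179% to 0.0706% in vehicle. All 12 erythroid genes were higher with a median of 0.40, at 0.232% to 0.386% in rapamycin, against 0.0778% to 0.342% in vehicle. Of 9 stromal and endothelial genes, 7 were higher with a median of 1.55, at 0.0138% to 0.0407% in rapamycin, against 0.00800% to 0.0208% in vehicle, and Col3a1 was at 0 counts in 12 of the 16 libraries. Across the 16 libraries Jun went with the B cell share at r = 0.56 and rho 0.57 (permutation p 0.022 and 0.0235, adjusted 0.25 and 0.194), and with the T and NK cell share at r = 0.57 and rho 0.61 (permutation p 0.0204 and 0.0139, adjusted 0.25 and 0.194), with r at 0.49 and 0.55 without the 2 farthest. The T and NK cell share may rest mostly on Nkg7, as given above. With the neutrophil and B cell shares as covariates, the rapamycin difference for Jun was -0.66, as it was without them. Because the B cell shares of rapamycin and vehicle did not overlap, the drug and that share cannot be told apart in this comparison. The part of the other shares was not tested.

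With both drugs against vehicle, the largest fitted differences were those of Fosb and Fosl2, while Junb and Atf3 were close to 0. Fosb had 36.8, 36.9, 25.7 and 16.1 CPM in the combination, against 56.7, 54.3, 23.3 and 70.7 CPM in vehicle. The groups overlapped through vehicle 3, which at 23.3 CPM was the lowest vehicle library. The log2 fold change was -0.83 ± 0.35 (95% interval -1.58 to -0.08, adjusted p 0.429 by edgeR). Fosl2 had 54.8, 81.8, 43.8 and 38.8 CPM in the combination, a difference of -0.61 ± 0.30 (adjusted p 0.493). Jund had 324, 416, 318 and 285 CPM, a difference of -0.57 ± 0.26 (adjusted p 0.460). Combination 2 reached the vehicle range for Jund and the other 3 did not.

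Junb had 348, 374, 421 and 366 CPM in the combination, against 363, 361, 446 and 325 CPM in vehicle, a log2 fold change of 0.01 ± 0.19 with a 95% interval of -0.39 to 0.41. Jun had 224, 197, 257 and 216 CPM in the combination (-0.37 ± 0.18, adjusted p 0.501), Fos 169.7, 112, 172 and 137 CPM (-0.32), and Atf3 53.1, 37.3, 50.9 and 53.1 CPM (0.01). No AP-1 gene and 0% of all genes passed against vehicle (1611 genes had an unadjusted p under 0.05, DESeq2 passed 184 and limma-voom 0, none of them an AP-1 gene). At an unadjusted p under 0.05, 2 of 7 were lower (Fosb and Jund), against 5.53% of all genes. The 3 comparisons with vehicle share its 4 libraries, so each gene's 3 values are not independent of one another. The differences without vehicle 3, rapamycin 3 and vehicle 4 were -0.94 for Fosb, -0.80 for Fosl2, -0.49 for Fos, -0.34 for Jund, -0.19 for Atf3, -0.18 for Jun and 0.06 for Junb.

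All 11 B cell genes tested were lower in the combination than in vehicle with a median of -3.76, and the summed share was 0.00591% to 0.732% in the combination, against 0.166% to 3.22% in vehicle. All 10 T and NK cell genes tested were lower with a median of -2.93, at 0.0164% to 0.0466% in the combination, against 0.0179% to 0.0706% in vehicle. Of 12 erythroid genes, 9 were lower with a median of -1.58, at 0.0897% to 0.142% in the combination, against 0.0778% to 0.342% in vehicle. None of these genes passed in edgeR (DESeq2 passed Ebf1, Vpreb3 and Cd3d). With the neutrophil and B cell shares as covariates, no AP-1 gene passed in edgeR in this comparison. The part of the T and NK cell and erythroid shares in the AP-1 differences was not tested.

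**Figure D3:**
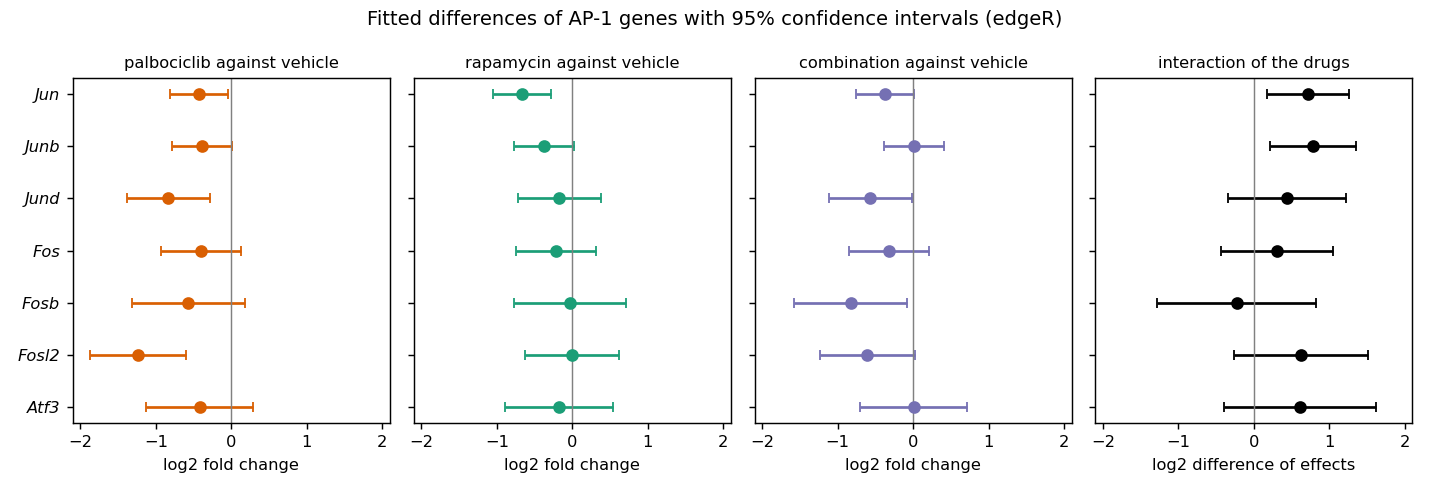
Fitted log2 fold changes (palbociclib, rapamycin and combination, each against vehicle) and the interaction of the drugs for each AP-1 gene, with 95% confidence intervals from edgeR. All 7 points for palbociclib lie below 0, and the intervals for Junb and Jun in the interaction lie above 0.

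Against palbociclib alone, Junb was higher in the combination in all 4 libraries, at 348, 374, 421 and 366 CPM, against 312, 245, 279.8 and 301 CPM in palbociclib. Libraries stood wholly apart for 1 of the 7 genes and, in this direction, for 2.23% of all genes. The log2 fold change was 0.41 ± 0.19 (95% interval 0.01 to 0.81), with an adjusted p of 0.9998 by edgeR. Fosl2 was 0.62 ± 0.30 (95% interval -0.01 to 1.26), Atf3 0.43 ± 0.34 and Jund 0.27 ± 0.26, and Fos (0.09), Jun (0.05) and Fosb (-0.26) lay near 0 or below. At an unadjusted p under 0.05, Junb was the 1 of 7 that was higher, against 1.67% of all genes. No gene passed (0% of all genes, 436 with an unadjusted p under 0.05, DESeq2 21, limma-voom 0).

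Against rapamycin alone, the combination was lower for Fosb (-0.80 ± 0.35, adjusted p 0.469), Fosl2 (-0.61 ± 0.30) and Jund (-0.40 ± 0.26), and higher for Junb (0.39 ± 0.19), Jun (0.29 ± 0.18) and Atf3 (0.18 ± 0.34), with Fos at -0.10. None of the 7 passed the test in edgeR, against 0.0327% of all genes (5), and 1 of 7 (Fosb) was lower at an unadjusted p under 0.05, against 4.35% of all genes. Without vehicle 3, rapamycin 3 and vehicle 4, the differences were 0.65 for Junb, -0.64 for Fosb, 0.57 for Atf3, -0.45 for Fosl2 and 0.38 for Jun, and the signs of Fos and Jund turned, to 0.02 for both. Selp, the platelet adhesion molecule P-selectin and a megakaryocyte marker, was the one gene of the lists that passed in edgeR here (DESeq2 passed 4 others): 216 ± 24.3 CPM in the combination, against 62.0 ± 17.5 CPM in rapamycin (SD, n = 4 each), a log2 fold change of 1.80 ± 0.25 with an adjusted p of 0.0197 by edgeR. The difference stayed positive throughout, and the call held in 1 of 8 fits that left out 1 library of these groups. Most of the list of Selp went the other way. Of 10 megakaryocyte genes tested, 2 were higher and 8 lower with a median of -0.47, where 51.9% of all genes were lower. At an unadjusted p under 0.05 in edgeR, 4 of the 10 were lower.

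Averaged over both rapamycin levels, palbociclib gave Fosl2 the largest difference of the 7 genes, again short of the threshold. The averaged log2 fold change of Fosl2 was -0.92 ± 0.21 (95% interval -1.37 to -0.48, adjusted p 0.0789 by edgeR), 90th by p, and it passed when palbociclib 2 (-1.06, adjusted p 0.0452) or vehicle 4 (-1.01, adjusted p 0.0472) was left out. DESeq2 passed Fosl2 (adjusted p 0.00293) and Jund (adjusted p 0.0377), against 475 of all 15308 genes. In edgeR the other averages were -0.69 for Fosb (adjusted p 0.231), -0.62 ± 0.18 for Jund (adjusted p 0.149) and between -0.25 and 0.00 for the other 4. The averages without vehicle 3, rapamycin 3 and vehicle 4 were -0.94 for Fosl2, -0.66 for Fosb, -0.29 for Jund, -0.28 for Fos, 0.15 for Junb, 0.07 for Jun and -0.02 for Atf3. No AP-1 gene passed in edgeR, against 0.274% of all genes (42). At an unadjusted p under 0.05, 3 of 7 were lower (Fosl2, Fosb and Jund), against 6.93% of all genes. Rapamycin averaged over palbociclib gave -0.30 ± 0.13 for Jun (adjusted p 0.9999 by edgeR), the 1 of 7 that was lower at an unadjusted p under 0.05, against 2.67% of all genes, and 0% of all genes passed in edgeR (711 with an unadjusted p under 0.05, DESeq2 42, limma-voom 0). Leaving out vehicle 3, rapamycin 3 and vehicle 4 gave averages of -0.28 for Fosb, -0.25 for Jun, -0.21 for Fos, -0.17 for Atf3, 0.14 for Fosl2, -0.09 for Junb and -0.05 for Jund.

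With all 16 libraries in the fit, Jun and Junb had the largest differences between the effect of palbociclib with rapamycin and without it. This interaction, the combination against rapamycin minus palbociclib against vehicle, was 0.78 ± 0.27 for Junb (95% interval 0.22 to 1.35, unadjusted p 0.00954, adjusted p 0.743) and 0.72 ± 0.26 for Jun (unadjusted p 0.0128, adjusted p 0.754 by edgeR). For Junb, the palbociclib effect was 0.39 (log2) with rapamycin and -0.39 without it. The other 5 genes ran from -0.23 (Fosb) to 0.62 (Fosl2). Without vehicle 3, rapamycin 3 and vehicle 4, the values were 1.19 for Atf3, 0.99 for Junb, 0.97 for Fosl2, 0.63 for Jund, 0.61 for Jun, 0.59 for Fos and 0.04 for Fosb, so that Jun was then below 4 of the other genes. At an unadjusted p under 0.05, 2 of 7 were positive, against 3.29% of all genes. None of the 7 passed (0% of all genes, with 868 under an unadjusted p of 0.05, DESeq2 39 and limma-voom 0).

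Within the family, the JUN genes together averaged 79.3% of the summed TPM in palbociclib, 77.8% in rapamycin, 80.7% in the combination and 79.8% in vehicle. Between 2 of the JUN genes, the group means of the ratio lay further apart, with overlap between libraries. The TPM ratio of Jund to Junb was 1.08 ± 0.147 in palbociclib and 0.973 ± 0.178 in the combination, against 1.61 ± 0.340 in rapamycin and 1.47 ± 0.348 in vehicle (SD, n = 4 each). It was above 1 in 2 of 4 libraries with palbociclib alone and 2 of 4 with both drugs, and in all 4 of rapamycin and all 4 of vehicle. Palbociclib 2 (1.29) and combination 2 (1.21) lay above vehicle 2 (1.20). No test was run on these ratios.

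Some AP-1 genes varied together between libraries. Among 21 pairs, 2 correlations passed a permutation test after adjustment. Jun and Junb had Pearson's r = 0.71 (permutation p 0.00163, adjusted 0.0259), and Spearman's rho of 0.64 did not pass (permutation p 0.00905, adjusted 0.095). Leaving out the 2 libraries farthest from the median lowered r to 0.50, and within groups it was 0.66. Fosl2 and Jund had r = 0.70 (permutation p 0.00247, adjusted 0.0259) and rho 0.74 (permutation p 0.00148, adjusted 0.0311), 0.65 without the 2 farthest and 0.44 within groups. The lowest r was -0.16, for Fosb and Jun. The number of genes detected in a library went with Jund at r = -0.67 and rho -0.44 (permutation p 0.00592 and 0.086, adjusted 0.135 and 0.372), but r was -0.21 without the 2 farthest, so this relation rested on those libraries. None of 91 relations between a member and a library measure passed after adjustment.

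**Figure D4:**
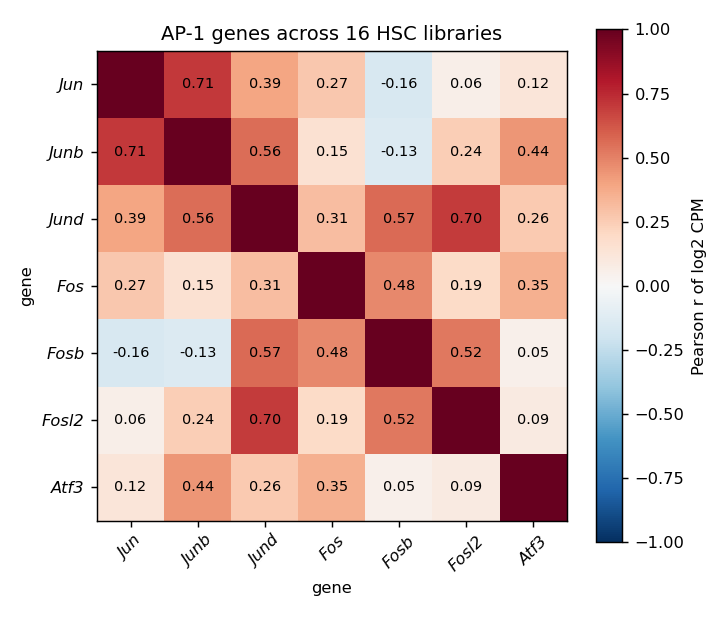
Pearson correlation of log2 CPM between each pair of AP-1 genes over 16 HSC libraries, with the r printed in each cell. Jun with Junb (0.71) and Fosl2 with Jund (0.70) are the highest of the 21 pairs.

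By likeness over the 16 libraries (Pearson r of log2 CPM, among 9512 genes averaging 3 or more in log2 CPM), the mean profile of the 7 genes was nearest to H2-D1 (r = 0.86), Ier2 (0.85), Actr5 (0.84), Bspry (0.83) and Cdk9 (0.82). The nearest genes to each member were Ubl5 (0.85) and Hspa1a (0.84) for Fos, Tmem109 (0.82) and Smarcd1 (0.82) for Fosb, Grasp (0.94) and Mettl27 (0.91) for Fosl2, Dbnl (0.87) and Prr14 (0.87) for Jun, Gipc1 (0.87) and Nudt18 (0.86) for Junb, Chkb (0.93) and Hmg20b (0.91) for Jund, and Tmem126a (0.78) and Necap1 (0.77) for Atf3. These are the highest of all genes ranked, and the values of a library share its depth and cell makeup.

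Around AP-1, most immediate early and feedback genes had negative fitted values in palbociclib against vehicle, and in edgeR no gene of any list passed that test. DESeq2 passed 4 genes of the lists, all lower (Fosl2, Ier2, Zfp36l2 and Dusp2), against 112 of all 15308 genes. In edgeR, 7 of the feedback genes and 8 of the immediate early genes were lower at an unadjusted p under 0.05, against 5.15% of all genes. Of 14 MAP kinase feedback genes, which switch the signalling off again, 13 were negative, with a median log2 fold change of -0.78. Dusp1, a MAP kinase phosphatase, averaged 40.5 ± 12.2 CPM in palbociclib and 79.3 ± 21.9 CPM in vehicle (SD, n = 4 each), a log2 fold change of -0.97 ± 0.34 (adjusted p 0.411 by edgeR), and Dusp6, the ERK phosphatase, -0.17 ± 0.22. Of 22 immediate early genes outside AP-1, 19 were negative with a median of -0.43. Ier2 averaged 168 ± 27.6 CPM in palbociclib and 265 ± 39.7 CPM in vehicle (-0.66 ± 0.17, adjusted p 0.272 by edgeR). All 4 of its palbociclib libraries were below all 4 vehicle libraries, as was so for 2.21% of all genes. The nuclear receptor Nr4a1 was at 344 ± 209.6 CPM in palbociclib and 747 ± 174 CPM in vehicle (-1.12 ± 0.38, adjusted p 0.387). Egr1, a zinc finger factor induced with Fos, was at -0.23 ± 0.22.

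The mRNA decay list, which holds proteins that bind AU-rich elements such as those in the mRNAs of Fos and Jun, parts of the CCR4-NOT deadenylase and its BTG cofactors, had 8 of 12 negative with a median of -0.28. Zfp36l2, one of the decay factors, averaged 40.8 ± 11.9 CPM in palbociclib and 84.4 ± 30.7 CPM in vehicle (-1.05 ± 0.26, adjusted p 0.269 by edgeR). Averaged over rapamycin it was -0.98 ± 0.19 with an adjusted p of 0.0390, the only gene of the lists other than Selp that passed in edgeR in any of the 8 comparisons. The call held in 6 of 12 other settings and in 3 of 16 fits leaving out 1 library. Zfp36 was at -0.34 ± 0.28, and Zfp36l1 at -0.93 ± 0.41, or -0.19 without vehicle 4, where the highest vehicle library reached 49.7 CPM.

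Among the upstream kinases, the signs were close to evenly split. Of 19 genes of the MAP kinase cascades, 10 were negative and the median was -0.02, and none passed in edgeR. Mapk3 (ERK1) was at -0.66 ± 0.33, Mapk14 (p38 alpha) at 0.21 ± 0.16 and Mapk8 (JNK1) at 1.09 ± 0.58, the last from 7.76 ± 2.97 CPM in palbociclib and 3.62 ± 0.503 CPM in vehicle. Of 13 regulators on the side of SRF and CREB, 10 were negative with a median of -0.17, and Srf, Elk1 and Creb1 were at -0.20 ± 0.21, -0.13 ± 0.42 and 0.62 ± 0.37. Of 11 AP-1 relatives tested, 7 were negative with a median of -0.13: Fosl1 at -0.20 ± 0.38, Jdp2 at -0.28 ± 0.36, Batf at 0.02 ± 0.20 and Atf2 at -0.15 ± 0.29. Of 14 heat shock chaperones, which sorting stress can induce, 7 were negative and the median was -0.02, and Hspa1a and Hspa1b were at -0.16 ± 0.75 and 0.02 ± 0.71 with libraries spread from 4.26 to 112 CPM in palbociclib. Of 17 partners and degraders of AP-1 proteins, 9 were negative with a median of -0.24.

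In rapamycin against vehicle, 6 of 14 feedback genes and 17 of 22 immediate early genes were negative, with medians of 0.08 and -0.20. In the combination against vehicle, 10 of 14 and 17 of 22 were negative, with medians of -0.22 and -0.32. In the combination against palbociclib, 1 of 14 and 11 of 22 were negative, with medians of 0.32 and 0.06. Of all genes, 51.0%, 51.6% and 51.0% were negative in these comparisons, in the same order. No gene of these 2 lists passed in edgeR in any of these comparisons. DESeq2 passed Socs3 (lower in rapamycin, against 86 of all genes), and Nr4a1 and Ppp1r15a (lower in the combination against vehicle, against 184 of all genes).

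**Figure D5:**
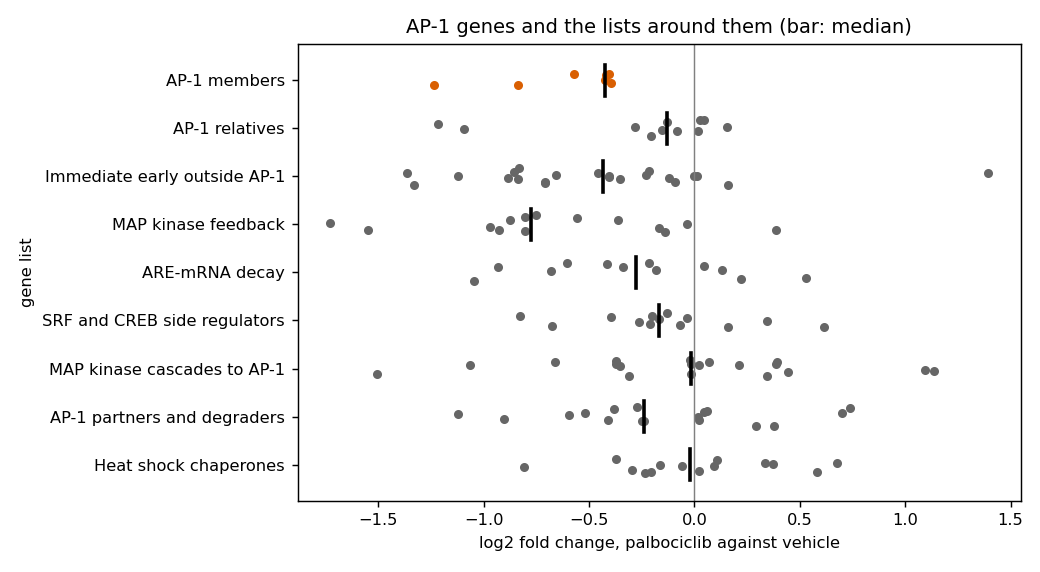
Log2 fold change of palbociclib against vehicle for the genes of each list, with the list's median as a bar. All 7 AP-1 genes and 13 of 14 MAP kinase feedback genes lie left of 0, with medians of -0.42 and -0.78, and the cascade and chaperone lists are centred at -0.02.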

How the data were processed

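RNA of sorted mouse HSCs was sequenced in 16 libraries made with a low-input kit, 4 per group, grouped by sample title. Per the submitters' processing notes, STAR 2.5.3a, RSEM 1.3.0, SAMtools 1.3 and mm10 were used. For filters, annotation and strand setting, values were not given in the sources used here. In whole numbers, expected counts were deposited by the authors for each gene. The authors also deposited log2(TPM + 1), from which TPM was recovered (library sums 999999 to 1000001).

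Counts were fitted with edgeR 4.0.16 in R 4.3.3: filterByExpr (minimum count 10, total 15), TMM scaling, 1 mean per group over 16 libraries (12 residual degrees of freedom), the quasi-likelihood F test and Benjamini-Hochberg adjustment over 15308 genes within each comparison at 0.05. Confidence intervals of fold changes are 95% ones. Alternatives used DESeq2 1.42.0 and limma 3.58.1 (voom, and log2 TPM with pseudocounts of 1 and 0.1). Symbols came from GENCODE M21 (GRCm38) for 50376 of 50686 IDs. Correlations used 100000 permutations over all 16 libraries regardless of group, adjusted over their family. Their p-values therefore do not separate differences between groups from those between libraries of a group. The fit was also run on simulated counts with known changes, but its power at the sizes of the AP-1 differences is not given here.

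Members and lists were chosen with earlier results of these data known. Genes named were the 7 members, 21 genes taken from the lists regardless of how they differed (1 of them is not reported here), any list gene past the test, and the nearest genes by correlation. No 2 libraries of a group agreed within sampling noise (24 pairs). The labels do not say that libraries came from separate mice, so the p-values cover only the spread among these samples, which may be technical. Total counts of 10133860 to 15328830 give these 7 genes counts of at least 177 per library, and the biological coefficient of variation in the fit was 55.8%.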

Additional observations from a re-analysis of the deposited data

Results flagged for a closer look

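Of 28 groups of 4 libraries (7 genes in 4 treatments), 3 had a library far from the others, where chance flags about 1 in 20. Fosl2 in palbociclib 2 was 54.0 CPM, against 28.4 to 31.2 CPM in the other 3 palbociclib libraries, a gap of 0.892 of the group's range. Jun in palbociclib 1 was 270 CPM, against 194 to 201 CPM in the other 3, a gap of 0.905. Atf3 in combination 2 was 37.3 CPM, below the other 3 at 50.9 to 53.1 CPM, a gap of 0.860.

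The palbociclib effect on Jun and Junb differed with and without rapamycin by 0.72 and 0.78 on the log2 scale (unadjusted p 0.0128 and 0.00954). Neither interaction passed after adjustment over all genes (adjusted p 0.754 and 0.743 by edgeR).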

How the results depend on the processing

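The count of AP-1 genes past the threshold was 0 in each of the 8 comparisons in edgeR. It became 1 for palbociclib and 2 for averaged palbociclib in DESeq2, and 1 for averaged palbociclib with blood cell shares as covariates. Leaving out 1 library gave 0 to 1 for averaged palbociclib and 0 elsewhere. Over all genes, leaving out 1 library gave 0 to 2 for rapamycin, 0 to 2 for the combination over rapamycin, 6 to 58 for averaged palbociclib, 0 to 5 for the interaction and 0 for the other 4. DESeq2 passed 112 (palbociclib), 86 (rapamycin), 184 (combination), 21 (combination over palbociclib), 168 (combination over rapamycin), 475 (averaged palbociclib), 42 (averaged rapamycin) and 39 (interaction). For the combination over rapamycin, against 5, covariates gave 10, log2 TPM 12 (pseudocount 0.1) and 13 (pseudocount 1), a minimum count of 50 gave 10, no filter 16 and the compared groups alone 56. For averaged palbociclib, against 42, library size gave 26, log2 TPM 18 with either pseudocount, voom 18 and leaving out vehicle 3, rapamycin 3 and vehicle 4 gave 14. For the combination, covariates and leaving out those 3 libraries each gave 1, as the latter did for palbociclib. For rapamycin, covariates gave 2, and log2(TPM + 1) and the compared groups alone 0. For averaged rapamycin no filter gave 23, and for the interaction RLE factors, a minimum of 50, no filter and leaving out the 3 libraries gave 3, 3, 4 and 3.

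The replicate numbers were not shown to pair libraries: the deviations of 24 same-number pairs correlated at a median of 0.04, 7 of them over 0.1, and 8 of 16 libraries correlated best with their own number. With the replicate block the counts were 1 (palbociclib), 1 (rapamycin), 0 (combination), 0 (combination over palbociclib), 11 (combination over rapamycin), 31 (averaged palbociclib), 3 (averaged rapamycin) and 0 (interaction), and no AP-1 gene passed.

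Differences that changed sign were all of genes that did not pass, and the causes were not tested. With DESeq2 these were Atf3 -0.00502 and Junb -0.00459 (combination), Fosl2 -0.00942 (rapamycin). With RLE size factors these were Atf3 -0.00500 and Junb -0.00446 (combination), Fosl2 -0.00931 (rapamycin). With blood cell shares as covariates these were Elk1 0.0231 and Hspa1b -0.60 (palbociclib), Fosb 0.12 and Fosl2 -0.33 and Jund 0.13 (rapamycin). With library size only these were Atf3 -0.00908 and Junb -0.0290 (combination), Batf -0.0270 (palbociclib), Fosb 0.0604 (rapamycin). With limma on log2(TPM + 0.1) these were Fos 0.0255 (averaged rapamycin), Fosb 0.13 (rapamycin), Hspa1b -0.15 (palbociclib), Junb 0.0152 (averaged palbociclib). With limma on log2(TPM + 1) these were Fos 0.0249 (averaged rapamycin), Fosb 0.12 (rapamycin), Hspa1b -0.13 (palbociclib), Junb 0.0150 (averaged palbociclib). With limma-voom these were Fosb 0.0834 and Fosl2 -0.0127 (rapamycin), Hspa1b -0.11 (palbociclib), Junb 0.0214 (averaged palbociclib), Junb -0.00908 and Jund -0.0142 (averaged rapamycin). With a minimum count of 50 these were Atf3 -0.0111 and Junb -0.00755 (combination), Batf -0.00369 (palbociclib). In fits of the compared groups only these were Atf3 -0.0116 and Junb -0.0128 (combination), Batf -0.00483 (palbociclib). With the replicate block these were Fosb 0.0293 (rapamycin), Junb 0.0209 (averaged palbociclib), Junb -0.00153 (averaged rapamycin). Without vehicle 3, rapamycin 3 and vehicle 4 these were Atf2 0.0713 and Batf -0.0773 and Hspa1b -0.21 (palbociclib), Atf3 -0.19 (combination), Atf3 -0.17 and Junb -0.0876 and Jund -0.0494 (averaged rapamycin), Fos 0.0207 and Jund 0.0240 (combination over rapamycin), Fosb 0.0395 (interaction), Fosl2 -0.35 (rapamycin), Jun 0.0701 and Junb 0.15 (averaged palbociclib). Leaving out 1 library at a time, the ranges that crossed 0 were Atf2 -0.28 to 0.15 and Batf -0.0655 to 0.18 and Dusp6 -0.37 to 0.0928 and Elk1 -0.47 to 0.11 and Fosl1 -0.37 to 0.0318 and Hspa1a -1.63 to 0.40 and Hspa1b -1.21 to 0.67 (palbociclib), Atf3 -0.56 to 0.12 and Fosb -0.27 to 0.17 and Fosl2 -0.18 to 0.14 and Jund -0.59 to 0.0199 (rapamycin), Atf3 -0.11 to 0.31 and Junb -0.0454 to 0.11 (combination), Fos -0.0119 to 0.22 and Jun -0.0184 to 0.18 (combination over palbociclib), Fos -0.18 to 0.0218 and Jund -0.59 to 0.0259 (combination over rapamycin), Atf3 -0.21 to 0.0775 and Jun -0.13 to 0.0171 and Junb -0.0586 to 0.13 (averaged palbociclib), Atf3 -0.0681 to 0.28 and Fos -0.17 to 0.0355 and Junb -0.11 to 0.0742 and Jund -0.16 to 0.14 (averaged rapamycin), Fosb -0.43 to 0.00720 (interaction). The fold changes of the 21 list genes and Selp and the added antisense counts were examined under these settings after the data were seen. The median of all genes moved by more than 0.1 for rapamycin with log2(TPM + 0.1) (0.10) and for the combination over rapamycin with library size only (-0.11).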
